A study of Mus musculus with 2 samples.

Results

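Intergenic peaks of H3K36me2 that lay beyond 25 kb from any transcription start site (TSS) were examined in colon chromatin of mice with and without intestinal NSD2. Members were the peaks that the authors annotated as distal intergenic and whose edge lay more than 25 kb from the nearest TSS, called far intergenic peaks here. They numbered 1704 of 19976 peaks in the Nsd2 fl/fl library and 2291 of 23518 peaks in the Nsd2 ΔIE library, that is 3995 of 43494 peaks in all. The Nsd2 fl/fl control mice carried floxed Nsd2 alleles and made NSD2, whereas Nsd2 ΔIE mice were made with Villin-Cre mice, whose recombinase is active in the intestinal epithelium, and lacked NSD2 there, so that the other cells of the colon kept it. All mice received a high-fat cholesterol diet (HFCD), for 16 weeks by the deposited design text and for 18 weeks by the study's methods, which describe males on a C57BL/6J background aged 7 to 8 weeks at the start. CUT&Tag, in which an antibody directs a transposase to cut and tag the DNA around a histone mark, was performed on whole colon with 1 library per genotype. The number of mice behind a library is not given in the sources used here. No difference between the genotypes therefore has a replicate check, no test between them was made, and the 95% Wilson intervals given beside shares cover counting error only. In whole tissue, fewer cells that carry a mark cannot be told apart from less mark per cell.

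NSD1 and NSD2 are the methyltransferases that place much of the dimethylation of lysine 36 on histone H3, a mark found over gene bodies and in broad stretches between genes. Intergenic H3K36me2 is bound by the DNA methyltransferase DNMT3A and hinders the spread of H3K27me3, the repressive mark of the Polycomb complex PRC2. Chromatin far from any TSS can hold enhancers, the sequences from which transcription factors regulate genes at a distance, and large gene-poor regions with few genes to regulate. A nearest gene, as named here, is only the gene whose TSS is closest and is no evidence that a peak acts on it.

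Far intergenic peaks were more numerous in the library without epithelial NSD2, at 1.34 times the number in Nsd2 fl/fl. They made up 8.53% of the Nsd2 fl/fl peaks (95% Wilson interval 8.15% to 8.93%) and 9.74% of the Nsd2 ΔIE peaks (9.37% to 10.1%). The number of intergenic peaks within 25 kb was 1.29 times that of Nsd2 fl/fl and the number of peaks in promoters and genes 1.15 times, so the whole list was longer in Nsd2 ΔIE and its intergenic classes more so. The called length of the far intergenic peaks, in contrast, was 0.992 times that of Nsd2 fl/fl, since the peaks were narrower. For peaks within 25 kb and for peaks in promoters and genes the ratios of called length were 0.952 and 0.832. With the Nsd2 ΔIE list cut to its strongest 19976 peaks, it held 1835 members, or 9.19% (8.79% to 9.59%), an interval that overlapped that of Nsd2 fl/fl. Among all distal intergenic peaks, 47.4% and 48.4% lay beyond 25 kb.

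The members lay beyond 25 kb from a TSS by choice, and their distances past that limit differed little between the libraries. The median distance to the nearest TSS was 50293 bp in Nsd2 fl/fl against 52160 bp in Nsd2 ΔIE. Between 25 and 50 kb lay 839 and 1093 peaks, or 49.2% and 47.7% of the members. At 50 to 100 kb there were 580 and 750 peaks, at 100 to 200 kb 229 and 343, and at 200 to 500 kb 52 and 98. Nsd2 ΔIE thus had the larger number in each class. Beyond 500 kb the lists held 4 and 7 peaks. The farthest lay 693 kb upstream of Gm7943 in the Nsd2 fl/fl list and 682 kb upstream of Nasp-ps1 in the Nsd2 ΔIE list. The loci of Nasp-ps1, Gm23239 and Gm38838 were among the 5 most distant members in both libraries, with peaks that did not overlap.

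**Figure D1:**
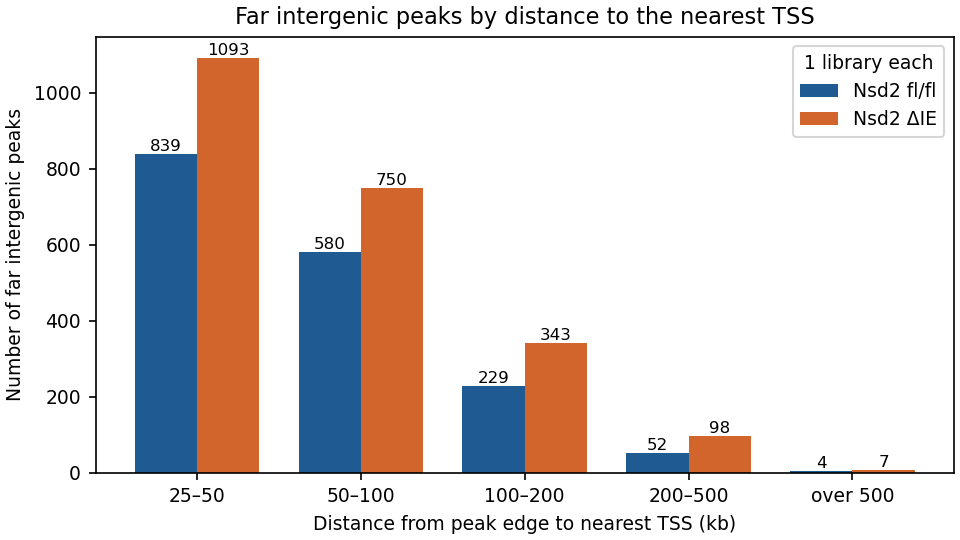
Number of far intergenic peaks (vertical axis) in classes of distance from the peak edge to the nearest TSS in kb (horizontal axis), with 1 bar per library and the number above it. Nsd2 ΔIE has more peaks than Nsd2 fl/fl in each class, from 1093 against 839 at 25 to 50 kb to 7 against 4 beyond 500 kb.

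Members lay about evenly on both sides of the nearest gene. Upstream of the TSS were 51.1% (48.7% to 53.4%) of the members in Nsd2 fl/fl against 52.0% (49.9% to 54.0%) in Nsd2 ΔIE, and the shares were 66.1% and 66.0% for the intergenic peaks within 25 kb. A peak beyond the 3′ end of a gene has its distance counted across the whole gene, and its part in this contrast was not tested. The members closest to the limit were those of Gm32756 (25001 bp) and E330035G20Rik (25070 bp) in Nsd2 fl/fl, and of Gm3898 (25020 bp) and Sntg2 (25027 bp) in Nsd2 ΔIE. Just outside it lay distal intergenic peaks of Aktip (24997 bp) and Tacc3 (24984 bp) in Nsd2 fl/fl, and of LOC115490181 (24992 bp) and Sod3 (24990 bp) in Nsd2 ΔIE. These peaks had 4.60 to 7.03 units of summed signal per bp on either side of the limit.

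Far intergenic peaks were slightly narrower at the median than peaks in promoters and genes and differed between the libraries as those did. Their median width was 4518.5 bp in Nsd2 fl/fl (quartiles 3873 and 5317 bp) and 3379 bp in Nsd2 ΔIE (2841 and 4002.5 bp), a ratio of 0.748, against 0.738 over all peaks. Over all peaks the medians were 4643 and 3426 bp, over peaks in promoters and genes 4679 and 3445 bp, and over nearer intergenic peaks 4501.5 and 3320 bp. The signal of a peak, which the authors deposited as a sum over its length, had a sharp lowest value in each list, 21783 in Nsd2 fl/fl against 16571 in Nsd2 ΔIE, and the ratio of these lowest values was 0.761. Members reached down to both of them, and 32.7% and 32.5% of the members lay within 10% of the lowest value, against 25.4% and 26.0% of all peaks. The lower limit thus moved with the width, and its part in the width difference was not tested.

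Divided by width, the median signal of the members came to 5.92 per bp in Nsd2 fl/fl against 6.05 per bp in Nsd2 ΔIE. Peaks in promoters and genes had 6.19 and 6.36 per bp. Sharp high peaks were few among the members and among intergenic peaks within 25 kb. They were not counted for peaks in promoters and genes or for all peaks, so whether this is particular to intergenic peaks is unknown. Values over 10 per bp were found for 7 of 1704 members in Nsd2 fl/fl against 33 of 2291 in Nsd2 ΔIE, and for 11 of 1894 and 46 of 2444 of the nearer intergenic peaks. In Nsd2 fl/fl the densest were near Gm26206 (11.3 per bp), Sorcs3, which encodes a neuronal sorting receptor (11.3 per bp), and Irx1 (10.6 per bp). In Nsd2 ΔIE they were near Gm9211 (13.9 per bp), Kcns3, a subunit of potassium channels (12.4 per bp), and Actrt2 (12.3 per bp), and these were only 1207, 1629 and 1745 bp wide. Their summed signals were 1.01, 1.22 and 1.29 times the lowest value of the list, so that near Gm9211 was among its weakest peaks. The lowest summed signal was lower and the peaks narrower in Nsd2 ΔIE, and the part of this in the counts over 10 per bp was not tested.

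The widest member lay 81.6 kb from Gm36254 at chr2:172599183-172617428, in the coordinates of the lists. It spanned 18246 bp in Nsd2 fl/fl with a summed signal of 118696, which was 5.45 times the lowest value. In Nsd2 ΔIE it was met by 2 peaks that reached beyond it at both ends and left a gap between them, and the called length of the joined region was 14419 bp. It ranked first by summed signal among the matched far intergenic regions of both libraries. Peaks of 10 kb or more were few among the members, 10 in Nsd2 fl/fl against 2 in Nsd2 ΔIE, of 676 and 163 such peaks in all. Those of Nsd2 ΔIE lay near Fbln2, which encodes an extracellular matrix protein (10334 bp), and near the histone deacetylase gene Hdac4 (10025 bp). At Fbln2 the overlapping Nsd2 fl/fl peak spanned 6145 bp, whereas at Hdac4 the Nsd2 fl/fl library had 2 peaks in its place, of 5939 bp and 3637 bp, which together came to 9576 bp.

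Most far intergenic peaks had no counterpart in the other library. Without an overlap of at least 1 bp were 1337 of the 1704 Nsd2 fl/fl members, or 78.5% (76.4% to 80.3%), and 1904 of the 2291 Nsd2 ΔIE members, or 83.1% (81.5% to 84.6%). Over all peaks the shares were 65.9% in Nsd2 fl/fl against 69.3% in Nsd2 ΔIE, over intergenic peaks within 25 kb 77.9% and 80.4%, and over peaks in promoters and genes 63.2% and 66.2%. With lists of equal length the members' shares were 81.7% and 82.2%. Lack of a counterpart was thus more frequent among the members than over all peaks, in both directions, and in Nsd2 fl/fl was close to the share among nearer intergenic peaks. Intergenic peaks of both kinds also held fewer strong peaks than promoters and genes. Of the members, 14.3% and 16.4% belonged to the strongest 25% of their list, of the nearer intergenic peaks 14.5% and 17.2%, and of the peaks in promoters and genes 27.3% and 27.1%.

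Within each class of signal, made by dividing a list into 4 equal parts, the members still lacked a counterpart more often than peaks in promoters and genes. In the weakest 25% of the lists, 83.0% of the Nsd2 fl/fl members and 87.3% of the Nsd2 ΔIE members had none, against 77.1% and 77.2% in promoters and genes. In the strongest 25%, the shares were 63.5% (57.3% to 69.3%) and 69.4% (64.6% to 73.9%), against 42.3% and 48.2%. The intervals of the members and of promoters and genes did not overlap in any class, while those of the members and of nearer intergenic peaks overlapped in each. Low overlap was thus found among intergenic peaks at both distances. Among members wider than 5 kb, 75.9% of the Nsd2 fl/fl and 70.1% of the Nsd2 ΔIE peaks had no counterpart, against 53.5% and 43.2% in promoters and genes.

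**Figure D2:**
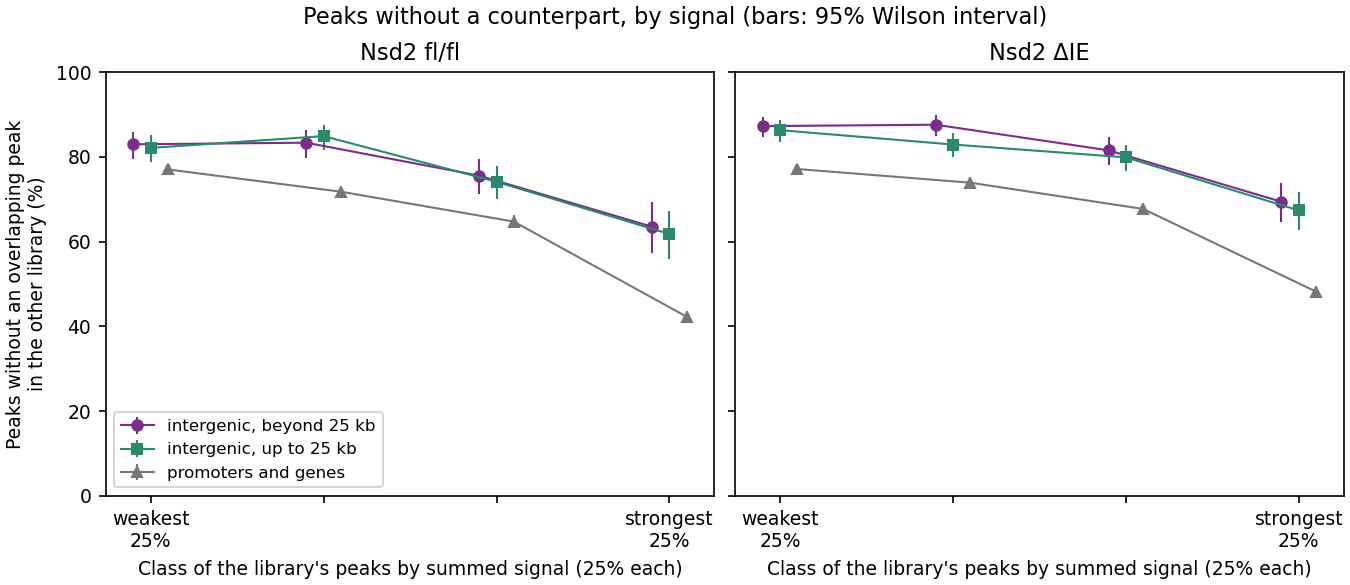
Percentage of peaks without an overlapping peak in the other library (vertical axis) by class of summed signal, each holding 25% of the library's peaks (horizontal axis), for far intergenic peaks, intergenic peaks within 25 kb and peaks in promoters and genes, with 95% Wilson intervals and 1 panel per library. Far intergenic peaks lie above promoters and genes in each class, for example at 63.5% against 42.3% in the strongest class of Nsd2 fl/fl, and near the other intergenic peaks.

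The share without a counterpart was highest at the greater distances in both libraries, with few peaks there. In Nsd2 ΔIE it was 80.9% (78.4% to 83.1%) at 25 to 50 kb and 83.3% (80.5% to 85.8%) at 50 to 100 kb. It was 86.0% (81.9% to 89.3%) at 100 to 200 kb and 94.9% (88.6% to 97.8%, 93 of 98 peaks) at 200 to 500 kb. Up to 200 kb these intervals overlapped each other, and the interval at 200 to 500 kb lay above those up to 100 kb. In Nsd2 fl/fl the shares were 77.1%, 79.1%, 79.0% and 88.5% (77.0% to 94.6%, 46 of 52 peaks), with overlapping intervals. None of the 4 and 7 peaks beyond 500 kb had a counterpart. A peak of the other library lay within 10 kb of 24.2% of the unmatched Nsd2 fl/fl members and 19.7% of those of Nsd2 ΔIE, and within 50 kb of 62.4% and 54.1%. The same shares over all peaks were not computed. Long lists place many peaks near each other in any case, so these shares are no evidence of agreement between the libraries.

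The strongest members without a counterpart were found near genes of several kinds. In Nsd2 fl/fl they lay near Gm23040 (10725 bp wide), LOC118568711 (9564 bp), Gm12295 (9769 bp), Gm28710 (8585 bp) and the homeobox gene Nkx1-1 (8777 bp). The closest Nsd2 ΔIE peak was 4558 to 20373 bp away from these. In Nsd2 ΔIE they lay near Gm34145 (8471 bp), 4933427D06Rik (7738 bp), Gm10445 (6311 bp), Gm4166 (6253 bp) and Gm33029 (6245 bp), and the closest Nsd2 fl/fl peak was 7097 to 161028 bp away. They ranked from 457 to 786 by signal in their list, and those of Nsd2 fl/fl from 602 to 1107, so a missing counterpart was not limited to the weakest peaks.

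Where peaks of the libraries did meet, the midpoints of their stretches of highest signal seldom lay within 500 bp of each other. The counterpart was itself a far intergenic peak for 357 of 367 matched Nsd2 fl/fl members and for 366 of 387 matched Nsd2 ΔIE members. In 354 pairs, each peak was the other's best overlap, and 348 of these pairs had the same nearest gene. Peaks that overlap lie at nearly the same distance from a TSS, so a shared class and nearest gene largely follow from the overlap. The midpoints of the stretches of highest signal were 1590 bp apart at the median (quartiles 636 and 2959 bp). They were within 500 bp in 22.3% of the pairs, against 1788 bp and 17.3% in 6272 other pairs. The length of these stretches was not taken into account, so stretches that overlap can have distant midpoints. The Nsd2 ΔIE peak was the narrower of the pair in 268 pairs, or 75.7%, against 74.3% of the other pairs.

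Joined across libraries, overlapping peaks formed 384 matched far intergenic regions of 6560 matched regions in all. In 151 of them, or 39.3%, the called length was lower in Nsd2 ΔIE by a log2 ratio below -0.5, against 44.1% of all matched regions. It was higher by a log2 ratio above 0.5 in 24, or 6.25%, against 9.31% of all matched regions, and 209 regions lay between the limits. The median log2 ratio was -0.36, and -0.40 over all matched regions. Regions with less length made up 86.3% (80.4% to 90.6%) of those past either limit, compared with 82.6% over all matched regions. These shares were near those of the whole list, and after centring on the median of all matched regions the direction was lost, with 65 far intergenic regions below and 79 above the limits. Shorter called regions in Nsd2 ΔIE were thus found over the lists as a whole.

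**Figure D3:**
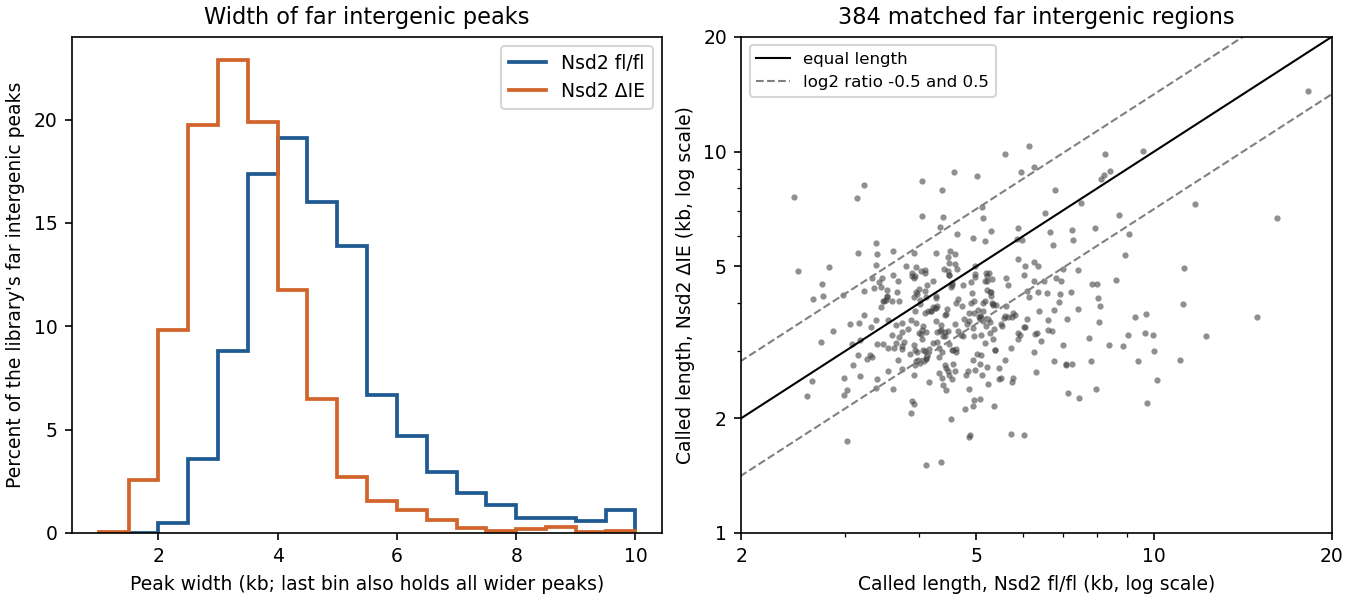
Left, percentage of each library's far intergenic peaks (vertical axis) by width in kb (horizontal axis). Right, called length in kb of 384 matched far intergenic regions in Nsd2 fl/fl (horizontal, log scale) and Nsd2 ΔIE (vertical, log scale), with the line of equal length and dashed lines at log2 ratios of -0.5 and 0.5, where 151 regions lie below the lower and 24 above the upper dashed line.

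The largest falls in length were at Gm8984, from 9725 bp to 2189 bp (log2 ratio -2.15), at Gm47072, from 14932 bp to 3675 bp (-2.02), and at Gm39223, from 10107 bp to 2513 bp (-2.01). They were followed by Gadd45g, a stress-induced growth arrest gene, with 11070 bp and 2842 bp (-1.96), and Gm32839, with 12223 bp and 3273 bp (-1.90). In all 5 regions the signal per bp was higher in Nsd2 ΔIE than in Nsd2 fl/fl, for example 8.54 against 5.86 at Gadd45g, so that the shorter region was the denser. The largest rises were at Dclk3, which encodes a doublecortin-like kinase, from 2455 bp to 7581 bp (1.63), at Gm40387 (3228 bp to 8180 bp) and at Abcg1, a transporter that exports cholesterol to lipoproteins (3134 bp to 7531 bp, 1.26). Next came Gm31550 (4040 bp to 8364 bp) and Gm38630 (2489 bp to 4858 bp). Here the signal per bp was lower in Nsd2 ΔIE, at 5.91 against 9.40 for Dclk3. No listed peak had less summed signal than 21783 in Nsd2 fl/fl or 16571 in Nsd2 ΔIE, so a short peak had to be dense. The regions were picked by their length ratio, so these contrasts in signal per bp largely follow from the choice and are no separate result. Most of the regions strongest in both libraries had more similar lengths, with 9576 bp and 10025 bp at Hdac4, 6671 bp and 6145 bp at Gm26206 and 7516 bp and 7340 bp at Gm35458. At Olfm1, which encodes a secreted protein of neurons, they were 11722 bp and 7263 bp.

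Along the chromosomes, the higher share of members in Nsd2 ΔIE was widespread. It was found on 17 of 19 autosomes, the exceptions being chromosomes 14 (8.98% and 7.82%) and 19 (5.97% and 5.26%). Chromosome 12 stood apart, with 74 members in Nsd2 fl/fl against 143 in Nsd2 ΔIE, or 8.83% (7.09% to 10.9%) and 13.2% (11.3% to 15.3%) of its peaks. It was the only one of the 19 autosomes on which the intervals did not overlap. Chromosome 13 had the highest share in both libraries, 14.1% and 14.4%. The X chromosome held 1 peak of any class in Nsd2 fl/fl against 5 in Nsd2 ΔIE, of which 1, near Gm26314, was a far intergenic peak, so almost nothing of this chromosome is described by the lists.

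**Figure D4:**
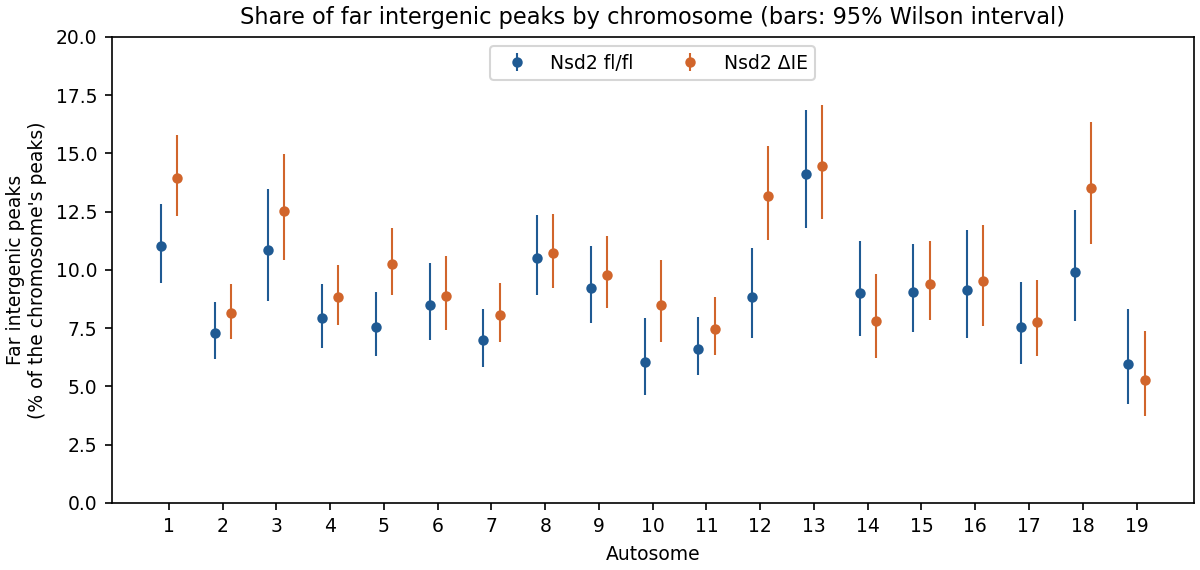
Far intergenic peaks as a percentage of all peaks of each autosome (vertical axis) by chromosome (horizontal axis), with 1 point per library and bars for the 95% Wilson interval. Nsd2 ΔIE lies above Nsd2 fl/fl on 17 of 19 autosomes, and chromosome 12 has 8.83% and 13.2%.

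Although single peaks seldom overlapped, the libraries placed their members in similar parts of the genome. Over the 2138 windows of 1 Mb with a peak of any class, the numbers of members in the libraries had a Pearson correlation of 0.715, against 0.939 for all peaks. The windows share gene density and mappable sequence, so this correlation is a description. Members were present in 802 windows in Nsd2 fl/fl, in 1012 in Nsd2 ΔIE and in 565 of these in both. The window with the most members, from 153 to 154 Mb on chromosome 4 around Ajap1 and Gm31055, held 13 in Nsd2 fl/fl against 26 in Nsd2 ΔIE. On chromosome 2 from 178 to 179 Mb there were 17 and 14. A window on chromosome 9 from 112 to 113 Mb, around Gm36251, had no member in Nsd2 fl/fl but 8 in Nsd2 ΔIE. The windows were picked after their values were seen.

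When neighbours less than 50 kb apart were joined into runs, 961 (56.4%) of the Nsd2 fl/fl members and 1212 (52.9%) of the Nsd2 ΔIE members stood alone. Runs of 3 or more numbered 90 in Nsd2 fl/fl against 131 in Nsd2 ΔIE and held 20.6% and 23.8% of the members. A denser list gives more runs, and the difference was not tested. The longest run in Nsd2 fl/fl, with 15 peaks over 336 kb at chr8:11918181-12253967, lay between Tex29, a gene named for its expression in testis, and Gm33029, and Nsd2 ΔIE had 9 members there. The called length in this stretch was 77889 bp in Nsd2 fl/fl against 33241 bp in Nsd2 ΔIE. Next were a run of 10 peaks by Irx1 and Gm4052 on chromosome 13, with 5 in Nsd2 ΔIE, and a run of 9 by Nkx1-1 and Fam53a on chromosome 5, with 6 in Nsd2 ΔIE.

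The longest run in Nsd2 ΔIE had 13 peaks over 229 kb at chr4:152986969-153216133 by Gm30911 and Gm31055, where Nsd2 fl/fl had 2 members. Called length there was 41698 bp in Nsd2 ΔIE and 9069 bp in Nsd2 fl/fl. A run of 12 peaks by Gm9211 and Gm38992 on chromosome 7 spanned 250.1 kb and met 1 member of Nsd2 fl/fl. The third run, of 11 peaks by Gadd45g and Gm40948 on chromosome 13, met 4 members of Nsd2 fl/fl, among them the peak of 11070 bp described above. Each library therefore had stretches in which it held most of the members, and the stretches were chosen for that contrast.

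By nearest gene, the members were spread over 2262 genes, 1260 in Nsd2 fl/fl against 1620 in Nsd2 ΔIE. Shared between the libraries were 618 genes, or 49.0% of those of Nsd2 fl/fl and 38.1% of those of Nsd2 ΔIE. Most genes had a single member, 963 of the 1260 Nsd2 fl/fl genes and 1196 of the 1620 Nsd2 ΔIE genes. Gene sharing was not computed for nearer intergenic peaks or for all peaks. Whether these shares are particular to the members is therefore unknown. Long noncoding RNA genes were the most frequent neighbours, at 48.3% and 48.5% of the members whose gene had a known type, and protein-coding genes made up 28.6% and 28.7%. Nearer intergenic peaks had the same order, with 44.7% and 44.4% for long noncoding RNA and 37.1% and 36.6% for protein-coding genes. Among peaks in promoters and genes the order was the reverse, with 26.8% and 27.4% for long noncoding RNA and 63.3% and 62.8% for protein-coding genes. The genes with the most members were Gm31055 (6 in Nsd2 fl/fl against 13 in Nsd2 ΔIE), Gm33029 (7 and 7), Gm28710 (6 and 7), Irx1 (6 and 6), Gm25633 (3 and 8) and Tex29 (8 and 3).

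Transcription factor genes were frequent among the annotated neighbours. Of the members whose nearest gene carried a gene identifier in the deposited annotation, 63 of 479 (13.2%, 10.4% to 16.5%) for Nsd2 fl/fl and 61 of 642 (9.50%, 7.47% to 12.0%) for Nsd2 ΔIE were next to a transcription factor. The shares were 11.7% and 10.1% for intergenic peaks within 25 kb and 7.04% and 7.38% for peaks in promoters and genes. In Nsd2 fl/fl the interval of the members lay above that of promoters and genes, while in Nsd2 ΔIE they overlapped. Members that share a nearest gene are not independent of each other.

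Developmental transcription factors, which set cell identity in the embryo, were taken from a list of 77 genes. Far intergenic peaks were listed for 7 of them in Nsd2 fl/fl (20 peaks) and for 12 in Nsd2 ΔIE (22 peaks), which was 29.9% and 27.2% of all peaks of these genes, against 8.53% and 9.74% over all peaks. Irx1, Irx5, Irx6, Bcl11b and Tshz3 had members in both libraries. Tbx18 and Isl1 had a member in Nsd2 fl/fl only, and Sox11, Sox14, Zfhx3, Sall1, Sall4, Barhl2 and Ebf3 in Nsd2 ΔIE only, each with 1 or 2 peaks. Most members of the list in Nsd2 fl/fl came from the Iroquois genes and Bcl11b, so its share rested on few genes. The shares over all peaks also count noncoding neighbours, whereas the listed genes code for proteins. Protein-coding genes were nearest to 28.6% and 28.7% of the members, against 63.3% and 62.8% of peaks in promoters and genes. A share over protein-coding neighbours alone would thus be lower, and it was not computed. A share above that of all peaks was not particular to this list. It was 29.0% and 17.9% for the transcription factors of the intestinal epithelium described below.

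The Iroquois homeobox genes, which pattern developing tissues and lie in clusters, differed from each other. At Irx1 on chromosome 13, 4 of 6 members in Nsd2 fl/fl overlapped 4 of 6 in Nsd2 ΔIE. These were found 26.4, 97.2, 158 and 170.2 kb from the TSS in Nsd2 fl/fl, and 29.2, 96.2, 157 and 171 kb from it in Nsd2 ΔIE. The densest of them in Nsd2 fl/fl, at chr13:72270300-72273525, had 10.6 units of signal per bp, and its counterpart had 5.55. At Irx5 and Irx6 on chromosome 8, in contrast, a run of 7 Nsd2 fl/fl members over 167 kb at chr8:93164693-93332070 met no far intergenic peak of Nsd2 ΔIE. Irx5 itself had 4 members in Nsd2 fl/fl, 80.3 to 146 kb from its TSS, and 1 in Nsd2 ΔIE at 70.8 kb, 7728 bp from the closest Nsd2 fl/fl peak. Irx6 had 3 members 68.8 to 138 kb away and 2 members 35.4 and 55.7 kb away, with no overlap between the libraries.

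**Figure D5:**
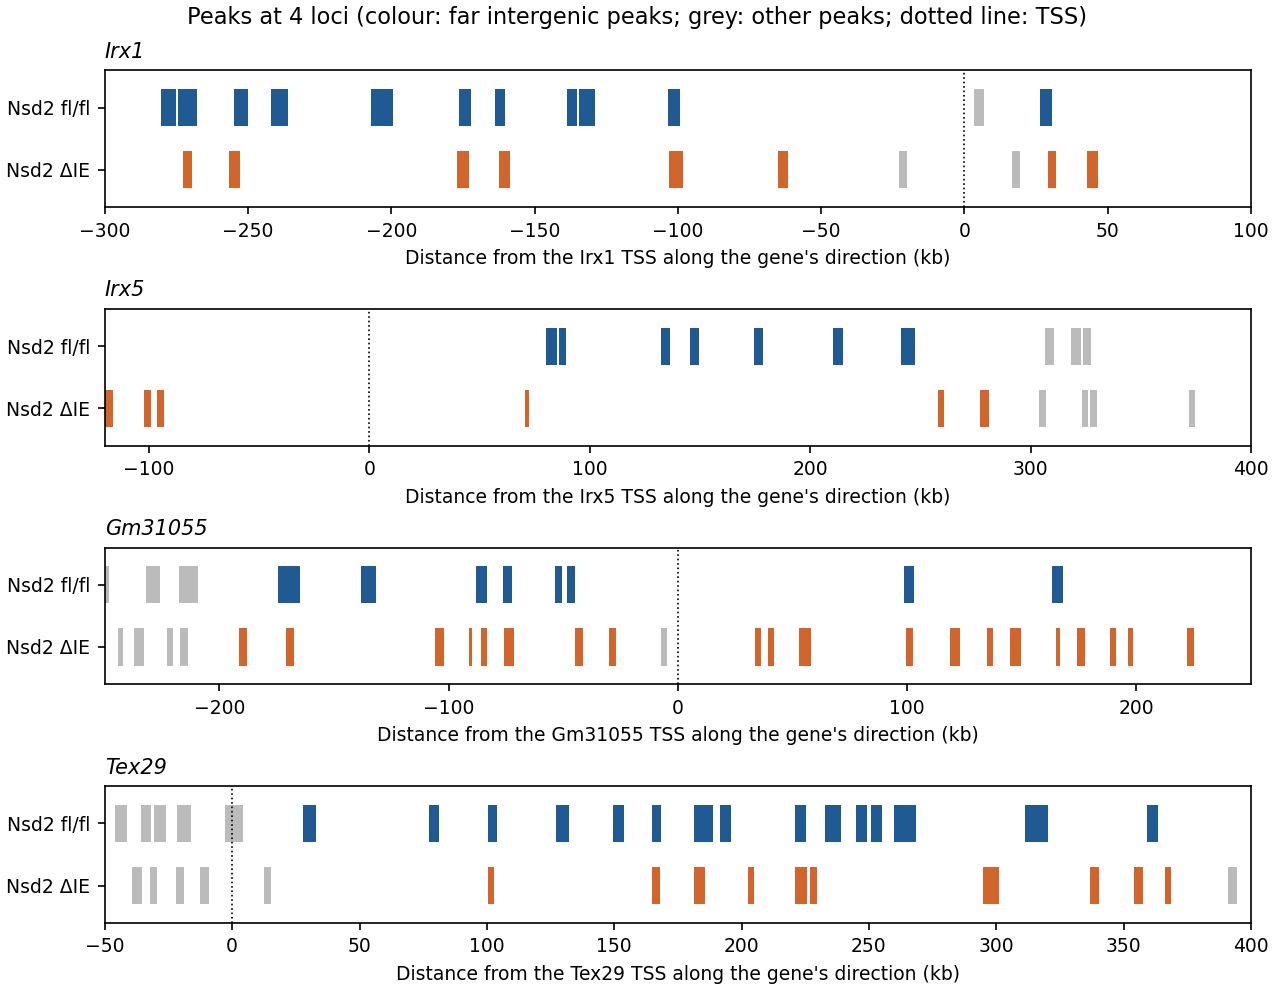
Peaks of each library (rows) along the distance in kb from the TSS of Irx1, Irx5, Gm31055 and Tex29, measured in the direction of the gene (horizontal axis), with far intergenic peaks in colour, other peaks in grey and the TSS as a dotted line. The loci were chosen for their contrasts: at Irx1 4 members of each library overlap, by Irx5 and Irx6 a run of 7 Nsd2 fl/fl members meets none of Nsd2 ΔIE, and at Gm31055 and Tex29 the libraries have 6 against 13 and 8 against 3 members.

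Bcl11b, a zinc-finger factor needed for T cells, had 4 members in Nsd2 fl/fl (18543 bp in all) and 3 in Nsd2 ΔIE (8359 bp), of which 2 overlapped in each library. At Tshz3 the libraries had 1 member each, 5407 bp and 3596 bp wide and separated by 864 bp. Nkx1-1, which was not in the list, had 5 members in Nsd2 fl/fl against 2 in Nsd2 ΔIE.

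Transcription factors of the intestinal epithelium, the tissue layer that lost NSD2, had members at 3 of 24 genes in each library. Gata6, which maintains epithelial identity along the gut, had 3 members in Nsd2 fl/fl, 40.9 to 139.8 kb from its TSS and 3998 to 4504 bp wide, but none in Nsd2 ΔIE. The closest Nsd2 ΔIE peak of any class lay 24246 bp from them. Prox1, a homeobox gene of enteroendocrine and lymphatic cells, had 3 members and 2, and Isx, an intestinal homeobox gene that limits vitamin A uptake, had 3 and 2. At neither gene did the members of the libraries overlap, although those of Prox1 came within 300 bp. Ascl2, a factor of intestinal stem cells, had 1 member of 3645 bp in Nsd2 ΔIE but none in Nsd2 fl/fl. Members made up 29.0% (9 of 31) and 17.9% (5 of 28) of all peaks of these genes. With 9 and 5 members in all, these numbers are too small to set the libraries apart.

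Signalling genes had members at 4 of 36 genes in Nsd2 fl/fl, Wnt5a, Wnt7b, Fgf9 and Sema3e, and at 3 in Nsd2 ΔIE, Wnt7a, Wnt7b and Dkk2, with 1 peak each. Wnt7b, a Wnt ligand, was the only one with a member in both, at 39.7 and 31.9 kb. Of 56 genes for neuronal adhesion and axon guidance, which often border gene-poor regions, 3 had members in Nsd2 fl/fl (Cdh13, Pcdh8 and Opcml) and 6 in Nsd2 ΔIE (Cntn5, Cntn6, Nrxn3, Slit3, Ntm and Epha3), with no gene in common. Members made up 9.76% and 8.82% of all peaks of these genes, and 16.0% (4 of 25) and 7.69% (3 of 39) of the peaks of the signalling genes. The shares over all peaks, 8.53% and 9.74%, also count noncoding neighbours and are no like baseline for these protein-coding genes. Cntn5 had the most distant member of the adhesion genes, 530 kb from its TSS.

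Genes of the mark and of the tissue had few peaks of any class, so that few or no far intergenic peaks among them is no result about these genes. Of 12 genes for enzymes that write or erase H3K36 methylation, with 15 and 10 peaks in all, only Smyd2 had members, 2 in Nsd2 fl/fl at 40.0 and 53.4 kb. Nsd2, the targeted gene, had no far intergenic peak in either library, and a histone peak does not measure whether its gene is deleted. No member was listed for the 12 genes of DNA methylation and PRC2 (10 peaks of any class in Nsd2 fl/fl, 9 in Nsd2 ΔIE), the 8 ER stress genes (2 and 1) or the 12 tight junction genes (7 and 8). The same held for the markers of epithelium (9 genes), immune cells (5), stroma and muscle (5) and enteric neurons and glia (4). Peaks of any class were listed for 4 of the 9 epithelial markers in Nsd2 fl/fl against 7 in Nsd2 ΔIE (5 and 17 peaks), and for 1 and 2 of the immune markers (1 and 3 peaks). For stroma and muscle they were listed for 2 and 2 markers (7 and 4 peaks) and for enteric neurons and glia for 1 and 1 (1 peak each). Such peaks do not measure expression, so the makeup of the tissue cannot be read from these lists.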

How the data were processed

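H3K36me2 CUT&Tag of mouse colon gave 2 peak lists, 1 per genotype, which the authors called in each library without pooling. Their processing notes name Bowtie2, SEACR, deepTools and ChIPseeker, without versions here, and the build hg38, although the samples are from mouse. Of 17571 genes of the lists found by symbol in a GRCm38.p6 table, 8974 had the same length and 190 of these the same start, so the build was not settled, positions are printed as deposited, and no peak sequence is shown. The deposited signal (coverage summed over a peak) has no stated scaling to depth, and depth is unknown. It was used to rank peaks within a list and to describe them. The authors' widths, distances and gene annotation were used as given, and each of 43494 distances equalled the gap from the peak edge to the TSS.

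Shares, overlaps and runs were computed with Python 3.11.15, numpy 2.4.6 and pandas 2.3.3, Wilson intervals with scipy 1.17.1 and plots with matplotlib 3.10.9. The steps were tested on 5000 simulated peaks, of which 5000 were placed in their simulated class and all 2000 simulated matched regions were found. Gene types came from the GRCm38.p6 table by symbol, for 96.4% and 95.9% of the members.

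Members, gene lists and limits were chosen with earlier results of these data known. Named were, per library, the 5 members with the highest summed signal, signal per bp, width and distance, the 5 genes with most members, the 3 longest runs, the 5 strongest members without counterpart and the 2 peaks on each side of the limit, and over both the 5 largest falls and rises, the 5 strongest matched regions and the listed genes with members. Not all are printed. Windows and mapped loci were chosen after their values were seen. Alternatives covered the distance limit, merging, autosomes, strength, list length, overlap and centring.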

Additional observations from a re-analysis of the deposited data

How the results depend on the processing

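Paired values give Nsd2 fl/fl first and Nsd2 ΔIE second. Under all settings run, Nsd2 ΔIE had the larger number of far intergenic peaks (8 of 8 settings), the larger share of them (9 of 9) and the larger share without a counterpart (9 of 9). Matched members were similar in number in the main setting, 367 and 387. The larger unmatched share of Nsd2 ΔIE thus largely follows from its larger number of members and is no separate result. With a limit of 10 kb there were 2814 and 3689 peaks (14.1% and 15.7% of all), and with 50 kb 865 and 1198 (4.33% and 5.09%), with 85.1% of those of Nsd2 ΔIE unmatched. The strongest 50% of each list held 670 and 913 members (6.71% and 7.76%). Of these, 81.2% and 84.7% were unmatched in the strongest 50% of the other list, which held fewer possible counterparts. Against the whole other list, 63.5% and 69.4% of the members in the strongest signal class were unmatched, and 75.6% and 81.6% in the next. The higher shares thus do not show that strong members lacked a counterpart more often than weaker ones. With equal numbers of peaks the differences were much smaller, with 1704 and 1835 members, shares of 8.53% and 9.19% whose intervals overlapped (8.15% to 8.93% and 8.79% to 9.59%), and 81.7% and 82.2% unmatched. As a share of called length the members made up 7.90% and 9.16%. A reciprocal overlap of 50% left 88.4% and 91.1% unmatched, and counting a peak within 5 kb as a counterpart left 67.9% and 73.4%. Under these alternatives the unmatched shares were computed for the members only. Whether they are particular to the members is therefore unknown. The share of matched regions with less length was 92.7% with a log2 limit of 1 and fell to 45.1% with centred log2 ratios, which by construction set the median of all matched regions to 0. Of 52 such values 27 stayed within the spread set for them, a fixed factor for numbers and the main interval for shares. Merging within 1 kb and autosomes alone moved none of them, but only 1 member lay off the autosomes. TSSs of both lists could move none, since each distance was already that to the nearest TSS. With equal numbers of peaks the number and share of members in Nsd2 fl/fl could not move either, since that list was not cut. The 27 unmoved values are thus no measure of stability. The counts of settings above include the main setting and autosomes alone, and those of number and share also include TSSs of both lists. No paired analysis was possible because the labels give a lone library to either genotype, and for the same reason none could be left out. Peaks below the lowest signal of a list cannot be seen.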

Other observations

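Members were also dense in the following stretches, all picked after their values were seen. Around Dysf, which encodes a protein of membrane repair in muscle, and Gm10445 on chromosome 6, a run of 10 Nsd2 ΔIE members over 173 kb covered 37304 bp and met 2 members of Nsd2 fl/fl (8812 bp). In the opposite direction, 7 members of Nsd2 fl/fl by the cell cycle gene Ccnd1 and Gm46023 on chromosome 7 covered 38609 bp of 75.5 kb and met 3 members of Nsd2 ΔIE (12807 bp). On chromosome 14 from 58 to 59 Mb, around the growth factor gene Fgf9, the windows held 7 and 1 members. By Lrfn2, a synaptic adhesion gene on chromosome 17, 8 Nsd2 ΔIE members and 6 Nsd2 fl/fl members shared a stretch of 159 kb, and the called length there was 26645 bp in Nsd2 ΔIE against 31999 bp.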
